A study of Rattus norvegicus with 6 samples.

Results

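The genes described here are 10 genes of Notch signalling, of 18166 named genes on the array: the ligands Jag1, Jag2, Dll1 and Dll4, the receptors Notch1, Notch2, Notch3 and Notch4, and the target genes Hes1 and Hey1. They were chosen by symbol, with earlier results of these data known, and all 10 were measured, each by 1 probe set. The RNA came from the epididymis, the coiled duct in which sperm mature, of Sprague-Dawley rats aged 48 days, from which basal cells were separated magnetically, leaving a non-basal fraction. Each fraction was measured on 3 Affymetrix RaGene 2.0 ST arrays, 6 arrays in all, in log2 RMA values, so that a difference of 1 is 2-fold. Neither group carried a transgene, mutation or treatment in the labels, and the surface molecule used for the separation is not named there. The labels speak of 3 rats and of triplicate experiments without tying an array to a rat, so the p-values rest on the spread among these samples, and that spread may be purely technical.

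Notch receptors are cell surface proteins that are activated by ligands of the Jagged and Delta families on a neighbouring cell. The ligand pulls on the receptor, ADAM proteases and then gamma-secretase cut it, and the freed intracellular part enters the nucleus, where it joins the DNA-binding protein RBPJ and switches on genes of the HES and HEY families of repressors. In many epithelia with a basal layer Notch signals between neighbours take part in the choice between basal and luminal fates, and in blood vessels Dll4, Notch4 and, in mural cells, Notch3 are well known members.

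Because Hes1 is the textbook direct target of RBPJ and Dll1 was among the ligands with higher values in the basal fraction, the 250 bases before their annotated start sites are shown, with every match to TGGGAA, the core of the RBPJ motif, on either strand in capitals. Both are RefSeq sequences of the GRCr8 build, written 5′ to 3′ along the gene. The Hes1 stretch is chr11:84213046-84213295 on the minus strand and the Dll1 stretch is chr1:64993275-64993524 on the minus strand.
Hes1: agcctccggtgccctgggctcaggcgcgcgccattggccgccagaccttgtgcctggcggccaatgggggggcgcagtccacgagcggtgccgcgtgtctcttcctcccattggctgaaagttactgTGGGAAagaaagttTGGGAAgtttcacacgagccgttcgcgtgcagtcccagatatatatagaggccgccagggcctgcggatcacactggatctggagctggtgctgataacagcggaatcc
Dll1: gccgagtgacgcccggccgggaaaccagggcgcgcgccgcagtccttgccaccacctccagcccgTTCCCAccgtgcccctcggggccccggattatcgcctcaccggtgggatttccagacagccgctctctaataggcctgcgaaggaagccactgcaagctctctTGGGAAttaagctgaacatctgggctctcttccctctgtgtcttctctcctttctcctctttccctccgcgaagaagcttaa
The Hes1 stretch held 2 matches, both reading TGGGAA along the gene, beginning 123 and 109 bases before the start site. The Dll1 stretch also held 2, which began 185 and 82 bases before the start site and lay on opposite strands. Of the 10 genes, 8 had an entry in the RefSeq promoter table, and 3 of them, Dll1, Notch4 and Hes1, held the core motif. The stretches of Jag1 and Jag2, the other ligands with higher values in the basal fraction, held 0 matches to the core motif. That motif was present in 22.1% of the 33469 stretches of this length in the table. The longer form GTGGGAA, which contains the core, was found for Dll1 and Hes1, and in 5.27% of all stretches. The N box CACNAG, a motif known to be bound by HES repressors, was found 4 times each before Hes1 and Notch1, with 2 of the Notch1 matches overlapping, 2 times before Notch4 and 1 time before Notch3, and was present in 37.2% of all stretches. A match is a description of the letters and not a measured binding site.

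The comparison of basal with non-basal arrays asked how expression in the basal fraction differs from that in the non-basal fraction. The ligands Jag1, Jag2 and Dll1 were higher in the basal fraction, the receptor Notch3 and the target Hey1 were lower, and Dll4, Notch1, Notch2, Notch4 and Hes1 did not pass the test. In limma, with Benjamini-Hochberg adjustment over all 18166 genes and a threshold of 0.05, 3 of the 10 genes were thus higher and 2 lower, against 7.71% and 7.14% of all genes tested. On 3 of the 10 genes every basal array lay above every non-basal array and on 3 every basal array lay below, against 17.6% and 15.3% of all genes, 32.9% together. Since the genes were chosen with earlier results of these data known, an excess over these shares is only a description. The median log2 difference of the 10 genes was 0.089, and that of all genes tested was 0.00343. All differences are basal minus non-basal. In such bulk RNA, fewer cells of a type and less RNA per cell cannot be told apart. Levels of different genes are not compared, since each probe set has its own response.

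Among the ligands, Jag2 stood furthest apart. Jag2, which encodes Jagged 2, read 9.91, 9.85 and 9.77 on basal replicates 1 to 3 and 7.50, 7.62 and 7.59 on non-basal replicates 1 to 3. The arrays within each fraction lay close together and the fractions did not overlap. The means were 9.84 ± 0.0704 (SD, n = 3) and 7.57 ± 0.0611 (n = 3), which differed by 2.27 ± 0.0699 (SE) on the log2 scale (limma adjusted p = 0.000908), or 4.81-fold. Of all 18166 genes tested, Jag2 ranked 1 by p-value and 46 by the height of its difference.

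Dll1, the Delta-like 1 ligand, read 9.39, 9.43 and 8.92 on the basal arrays and 7.24, 7.35 and 7.54 on the non-basal arrays. Basal replicate 3 was the lowest of the basal arrays and still lay above every non-basal array. The means were 9.25 ± 0.285 (SD, n = 3) and 7.38 ± 0.152 (n = 3), which differed by 1.87 ± 0.161 (SE) on the log2 scale (limma adjusted p = 0.0025), or 3.65-fold. Jag1, which encodes Jagged 1, read 10.80, 10.73 and 10.58 on the basal arrays and 9.66, 9.99 and 9.87 on the non-basal arrays. The fractions again did not overlap, but the difference was smaller, at 0.87 ± 0.11 (SE, limma adjusted p = 0.00569), or 1.82-fold. The means of Jag1 were 10.70 ± 0.113 (SD, n = 3) and 9.84 ± 0.168 (n = 3).

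Dll4, the Delta-like 4 ligand of blood vessels, lay on the other side. It read 7.46, 7.55 and 7.68 on the basal arrays and 8.02, 7.84 and 7.85 on the non-basal arrays. Every basal value was below every non-basal value, yet the log2 difference of -0.34 ± 0.0896 (SE; 95% interval -0.56 to -0.12) missed the threshold at a limma adjusted p of 0.0563. It passed without basal replicate 3, at an adjusted p of 0.0358, and after dim probe sets were removed, at 0.0494 and 0.0402 for group means of at least 5 and 7.

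**Figure D1:**
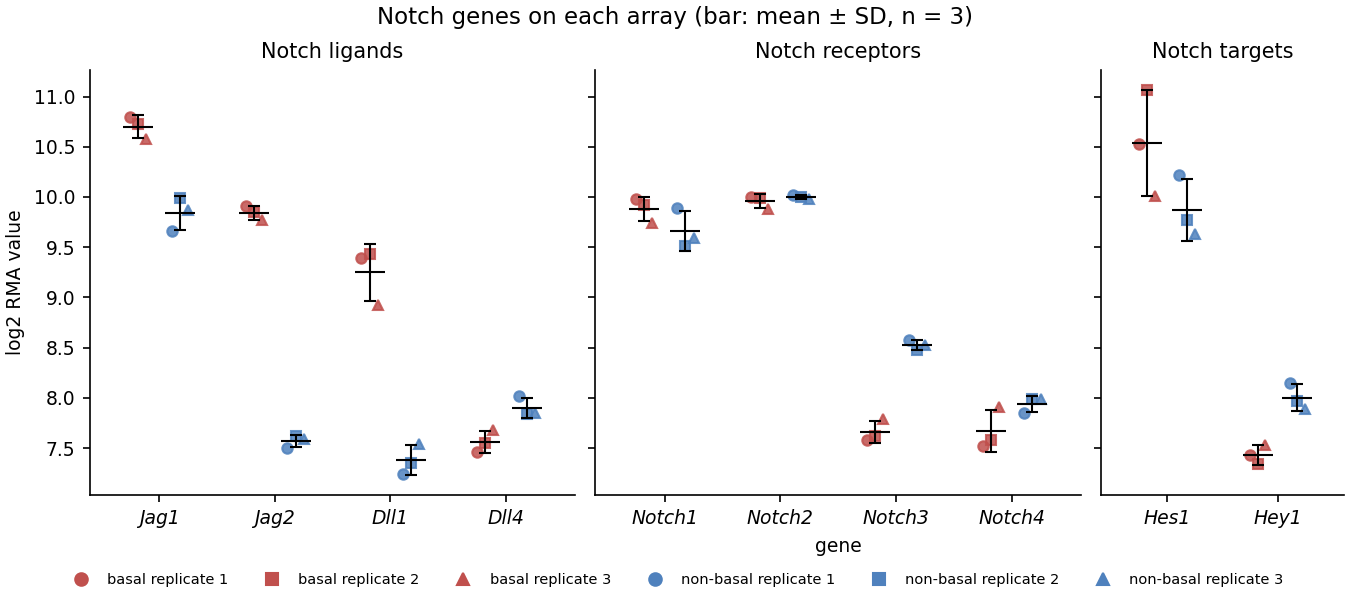
Log2 RMA value (vertical axis) of each of the 10 Notch genes (horizontal axis) on 3 basal (red) and 3 non-basal (blue) arrays, with the mean and SD of each fraction as black bars. Jag1, Jag2 and Dll1 lie higher on every basal array, Notch3, Hey1 and Dll4 lie lower on every basal array, and the fractions overlap for Notch1, Notch2, Notch4 and Hes1.

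Among the receptors, Notch3 was lower in the basal fraction and the other 3 did not pass the test. Notch3, the receptor known from vascular smooth muscle cells and pericytes, read 7.58, 7.62 and 7.79 on the basal arrays and 8.58, 8.48 and 8.53 on the non-basal arrays. The fractions did not overlap, and basal replicate 3 was the basal array nearest to the non-basal ones. The means were 7.66 ± 0.11 (SD, n = 3) and 8.53 ± 0.0497 (n = 3), which differed by -0.87 ± 0.0787 (SE) on the log2 scale (limma adjusted p = 0.00266), which is 1.83-fold lower in the basal fraction.

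Notch1, a receptor expressed in many epithelia, read 9.98, 9.92 and 9.74 on the basal arrays and 9.89, 9.51 and 9.59 on the non-basal arrays. Non-basal replicate 1 lay among the basal values, and the difference of 0.22 ± 0.123 did not pass (limma adjusted p = 0.291). The 95% interval of the Notch1 difference ran from -0.08 to 0.52. Notch2 read 9.998, 9.991 and 9.881 against 10.016, 9.997 and 9.975, and its difference of -0.04 ± 0.0633 had a 95% interval from -0.19 to 0.11 (limma adjusted p = 0.712). As a ratio of basal to non-basal, the interval of Notch2 was 0.874 to 1.08.

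Notch4, a receptor best known from endothelial cells, read 7.52, 7.58 and 7.91 on the basal arrays and 7.85, 7.99 and 7.99 on the non-basal arrays. Only basal replicate 3 reached into the non-basal range. The log2 difference was -0.27 ± 0.12 (SE; 95% interval -0.57 to 0.02; limma adjusted p = 0.189). Without basal replicate 3 the difference of Notch4 was -0.40 and passed, at an adjusted p of 0.0256.

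Of the target genes, Hey1 was lower in the basal fraction and Hes1 did not pass. Hey1, a HEY family repressor, read 7.43, 7.34 and 7.53 on the basal arrays and 8.15, 7.97 and 7.89 on the non-basal arrays. The fractions did not overlap. The means of Hey1 were 7.433 ± 0.0969 (SD, n = 3) and 8.001 ± 0.134 (n = 3), which differed by -0.57 ± 0.0949 (SE) on the log2 scale (limma adjusted p = 0.0135), or 1.48-fold lower in the basal fraction. This call was lost without basal replicate 1 (adjusted p = 0.0628), basal replicate 2 (0.0637) or non-basal replicate 2 (0.0553).

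Hes1, the HES family repressor whose promoter is shown above, was the most variable of the 10 genes. It read 10.53, 11.07 and 10.01 on the basal arrays and 10.22, 9.77 and 9.63 on the non-basal arrays. Basal replicate 3 lay below non-basal replicate 1, and every other basal value lay above every non-basal value. The SDs of 0.53 and 0.308 were the largest of the 10 genes in each fraction. The difference of 0.66 ± 0.293 (SE; 95% interval -0.05 to 1.38) did not pass (limma adjusted p = 0.194). Hes1 stayed above the threshold whichever single array was omitted, with limma adjusted p from 0.0674 to 0.413. Without both basal replicate 3 and non-basal replicate 1 the Hes1 difference was 1.10 and passed, at a limma adjusted p of 0.0418. Those arrays held the lowest basal and the highest non-basal value of Hes1, so omitting them had to widen the difference. Only basal replicates 1 and 2 and non-basal replicates 2 and 3 remained in that fit. It therefore cannot decide whether Hes1 differed.

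**Figure D2:**
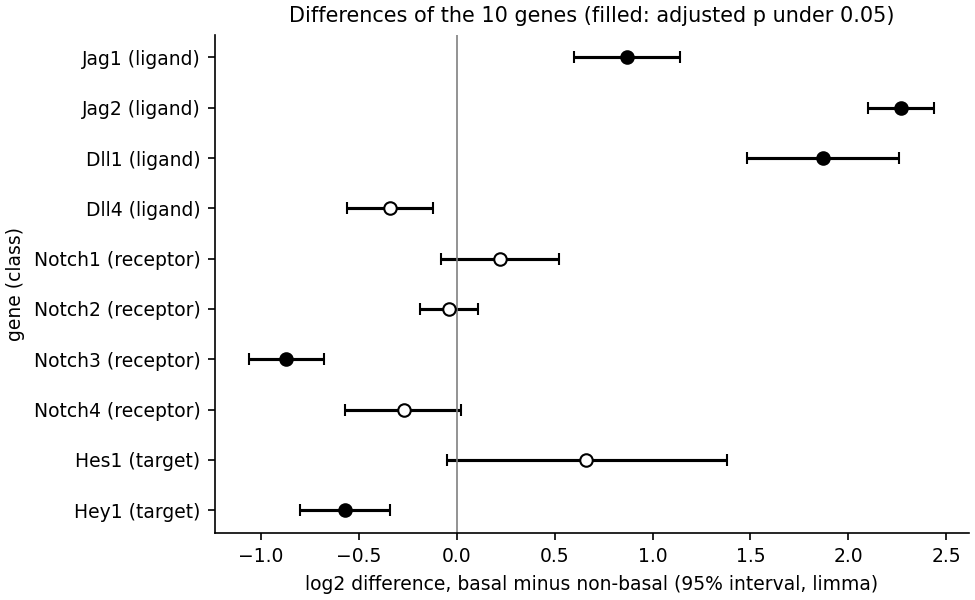
Log2 difference, basal minus non-basal (horizontal axis), with its limma 95% interval for each of the 10 genes (vertical axis), filled where the adjusted p was under 0.05. Jag2 and Dll1 lie at 2.27 and 1.87, Jag1 at 0.87, Notch3 and Hey1 at -0.87 and -0.57, and the interval of Hes1 is the widest.

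The 3 classes were set side by side, with no test of a difference between them. The median log2 difference was 1.37 for the 4 ligands, with a range from -0.34 to 2.27. For the 4 receptors it was -0.16, with a range from -0.87 to 0.22. For the 2 targets it was 0.05, which is the midpoint of the Hey1 and Hes1 differences. The mean deviation of the ligands from each gene's mean over the 6 arrays was 0.63, 0.63 and 0.48 on basal replicates 1 to 3 and -0.65, -0.55 and -0.54 on non-basal replicates 1 to 3. The mean deviation of the receptors was -0.15, -0.14 and -0.08 against 0.17, 0.08 and 0.11, so the arrays of the fractions did not overlap for either class. Of the receptors, only Notch3 had passed the test, and Notch1 had a difference above 0. The targets overlapped, at 0.02, 0.24 and -0.19 against 0.22, -0.09 and -0.20. The median of the targets turned to -0.06 when basal replicate 2 was left out and to -0.04 when non-basal replicate 3 was left out. These class values are descriptions, since the genes were chosen with results known.

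Within a class the genes were compared pair by pair, as the difference between both genes on each array, in 13 pairs. Jag2 minus Jag1 was -0.90, -0.88 and -0.81 on the basal arrays and -2.15, -2.37 and -2.27 on the non-basal arrays. Jag2 thus differed more between the fractions than Jag1 by 1.40 on the log2 scale. Jag2 minus Dll1 was 0.51, 0.42 and 0.85 against 0.27, 0.27 and 0.05, a smaller excess of 0.40. For Notch1 minus Notch3 the excess was 1.09, and for Hes1 minus Hey1 it was 1.23. Of the 13 pairs, 10 did not overlap between the fractions, and each of these had an exact two-sided permutation p of 0.10, the smallest that 3 against 3 arrays can give, and 0.13 after Benjamini-Hochberg adjustment over the 13 pairs. No pair could therefore pass at 0.05. The pairs share genes, and no share over pairs of all genes was computed, so the count of 10 is only a description. Single genes did not overlap in 32.9% of all genes tested. The 3 pairs that overlapped were those among Notch1, Notch2 and Notch4.

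**Figure D3:**
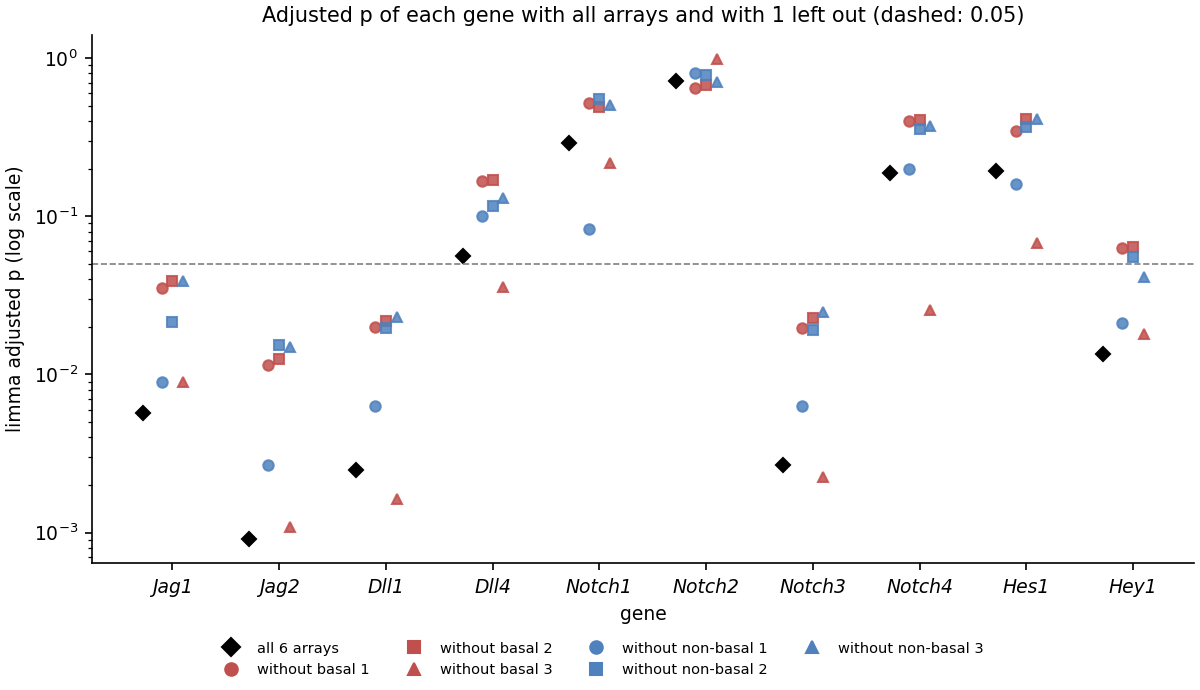
Limma adjusted p on a log scale (vertical axis) for each of the 10 genes (horizontal axis) with all 6 arrays (diamond) and with each basal (red) or non-basal (blue) array left out, the dashed line marking 0.05. Jag1, Jag2, Dll1 and Notch3 stay under the line in all 6 fits, with highest values of 0.039, 0.0154, 0.023 and 0.0249, while Hey1 crosses it in 3.

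Of the 5 genes that passed, 4 passed with any 1 array left out, namely Jag1, Jag2, Dll1 and Notch3. The number of members that were lower was 1 without either of basal replicates 1 and 2 or without non-basal replicate 2, and 4 without basal replicate 3. The number that were higher was 3 in each of those fits.

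The labels were checked against markers of the cells that the fractions could hold. Of 15 basal epithelial markers 11 were measured, and 11 were higher in the basal fraction, with a median log2 difference of 2.82. Their defining markers Tp63, Krt14, Krt15 and Itgb4 had differences of 3.10, 3.40, 3.32 and 2.82. The 2 keratin genes have near-identical relatives, which makes their own values uncertain. The count of higher basal epithelial markers was 9 without basal replicate 1 or basal replicate 2 and 10 without non-basal replicate 2. The mean deviation of the basal epithelial list was 1.06 to 1.42 on basal arrays and -1.86 to -1.01 on non-basal arrays. Every basal array thus lay above every non-basal array, as for Jag1, Jag2 and Dll1. Whether Jag1, Jag2 and Dll1 differed within any 1 cell type was not tested.

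Most markers of endothelial cells and of smooth muscle cells and pericytes were lower in the basal fraction, as were Notch3 and Hey1. Of 15 measured endothelial markers 14 were lower in the basal fraction and 1 did not pass, and the mean deviation of the list was -0.812 to -0.521 on basal and 0.625 to 0.745 on non-basal arrays. The endothelial genes Cdh5, Tie1, Erg and Emcn had differences of -2.27, -1.60, -1.99 and -1.98. Of 13 measured markers of smooth muscle cells and pericytes 10 were lower and 3 missed the threshold, with a mean deviation of -1.11 to -0.493 on basal and 0.762 to 0.966 on non-basal arrays. Among their defining markers Myh11, Rgs5 and Pdgfrb had differences of -2.84, -3.00 and -2.68, whereas Cspg4 was at 0.39 and did not pass (limma adjusted p = 0.0532). With 1 array left out, 10 to 13 endothelial markers and 9 to 11 smooth muscle and pericyte markers were lower. Without basal replicate 3, 1 smooth muscle and pericyte marker was higher. RMA values have no true zero, so no marker can be called absent. On basal replicate 3, where Notch3, Notch4, Dll4 and Hey1 had their highest basal values, the endothelial, smooth muscle and pericyte, fibroblast, principal cell and narrow and clear cell lists also had their highest basal values. The part of any of these cells in the values of these genes was not tested.

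Among the other lists, all 12 fibroblast markers were lower in the basal fraction, as were 8 of 15 leukocyte markers, and their mean deviation on basal arrays was -2.67 to -0.9 and -0.961 to -0.626. The fibroblast count was 5 when basal replicate 2 or non-basal replicate 3 was left out and 6 in the fit lacking non-basal replicate 2. The leukocyte count was 3 when basal replicate 1 or 2 or non-basal replicate 2 or 3 was left out, 5 when basal replicate 3 was left out and 13 in the fit lacking non-basal replicate 1. The defining fibroblast markers Lum, Dcn, Pdgfra and Col1a1 had differences from -4.75 to -3.87. The defining leukocyte markers Ptprc, Laptm5, Tyrobp and Cd3e lay at -1.98, -1.66, -1.23 and -0.53, of which Tyrobp and Cd3e did not pass. None of 11 measured principal cell markers and none of 10 narrow and clear cell markers passed in limma. At an unadjusted p under 0.05 there were 4 and 1, against 5443 of all 18166 genes tested. When basal replicate 3 was left out, 5 principal cell markers and 1 narrow and clear cell marker were lower, and when non-basal replicate 1 was left out, 1 principal cell marker was lower. The defining principal cell markers Lcn5, Adam7, Crisp1 and Aqp9 had differences of -0.32, -0.64, -0.79 and -0.66. The defining narrow and clear cell markers Foxi1, Atp6v1b1, Atp6v0d2 and Slc4a9 lay at 0.18, -0.04, -0.36 and -0.00. The principal cell markers had a mean deviation of -0.519, -0.28 and 0.188 on basal replicates 1 to 3 and 0.128 to 0.352 on non-basal arrays. The narrow and clear cell list overlapped between the fractions, from -0.196 to 0.0707 against -0.111 to 0.393. Lcn5 averaged 13.53 on the basal and 13.85 on the non-basal arrays, and Foxi1 10.45 and 10.27. The basal fraction is therefore not taken here as basal cells alone, and the amount of RNA from other cells in it was not measured.

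**Figure D4:**
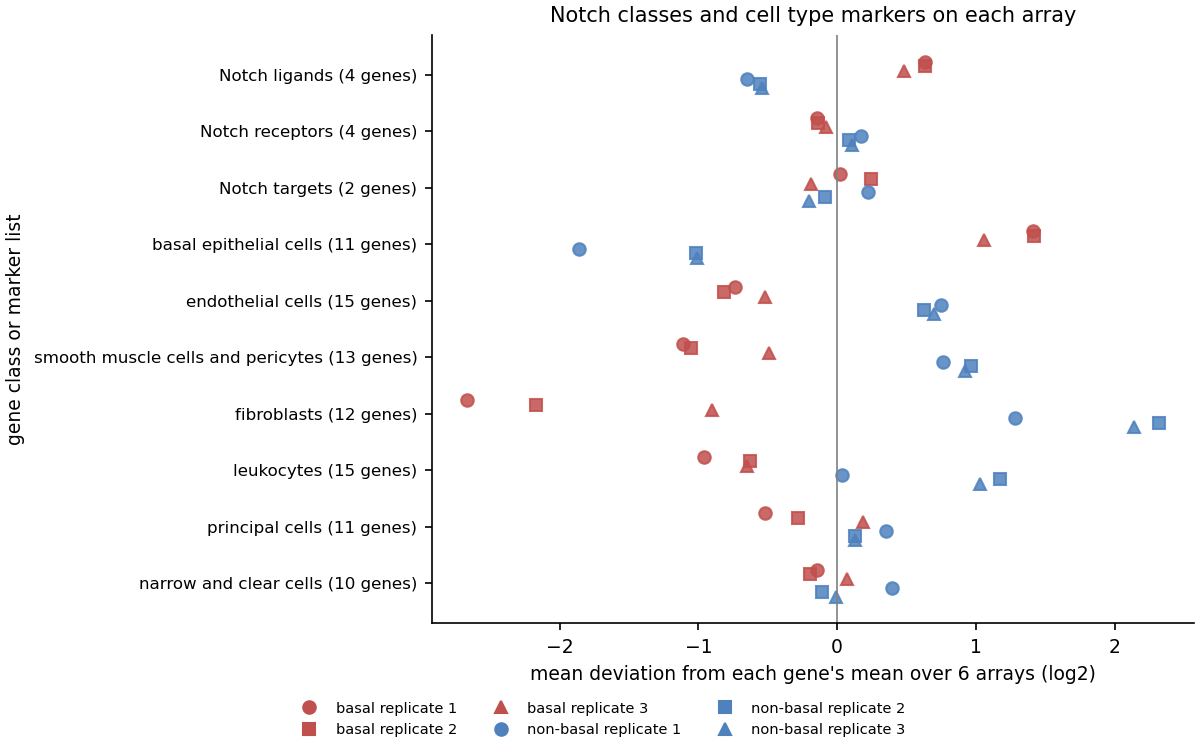
Mean deviation from each gene's mean over 6 arrays, in log2 units (horizontal axis), for the 3 Notch classes and 7 lists of cell type markers (vertical axis) on each basal (red) and non-basal (blue) array. As a class mean, the Notch ligands lie on the side of the basal epithelial markers, although Dll4 had a difference of -0.34. The mean of the Notch receptors, with a smaller spread, lies on the side of the endothelial, smooth muscle and pericyte, fibroblast and leukocyte markers. Of the receptors only Notch3 passed the test, and Notch1 had a difference of 0.22.

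Of 71 other genes of the pathway, in 8 lists by function, 60 were measured, of which 6 were higher in the basal fraction, 7 were lower and 47 missed the threshold. That is 21.7% of them, against 14.9% of all genes tested, and their median log2 difference was -0.0177. These lists too were chosen with earlier results of the data known, so the share is only a description. Of these 13 calls, 4 held with any 1 array left out, those of Dlk1, Dlk2, Eogt and Adam17. Leaving out either basal replicate 1 or basal replicate 2 gave 3 higher and 1 lower. Leaving out non-basal replicate 2 gave 4 and 2, and leaving out non-basal replicate 3 gave 3 and 2.

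Among 5 ligand-like genes, the closely related Dlk1 and Dlk2 went opposite ways. Dlk2, a non-canonical Delta-like protein, read 8.74, 8.76 and 8.64 on the basal arrays and 7.11, 7.13 and 7.52 on the non-basal arrays, and the means differed by 1.46 ± 0.125 (SE) on the log2 scale (limma adjusted p = 0.00247). Dlk1, its relative found in many immature and stromal cells, read 7.39, 6.95 and 7.57 against 8.56, 8.88 and 9.26, a difference of -1.60 ± 0.229 (adjusted p = 0.00824). For both genes the fractions did not overlap. Dner, a Notch-binding transmembrane protein of neurons, was lower at -1.48 ± 0.347 (adjusted p = 0.0396). Among the 6 fits with 1 array left out, Dner passed only without non-basal replicate 1. Non-basal replicate 1, at 6.99, was the lowest non-basal array for Dner, against 8.35 and 8.05. Egfl7, a secreted endothelial protein that is also among the endothelial markers, had a difference of -0.38 ± 0.121 and Dll3 one of -0.20 ± 0.12, and neither passed (adjusted p = 0.0944 and 0.318).

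None of the 7 measured genes that help ligands to be taken up in the sending cell passed in limma. The count at an unadjusted p under 0.05 was 0, against 5443 of all 18166 genes tested. Among them Mib1, the ubiquitin ligase that acts on Jagged and Delta ligands, had a difference of 0.12 ± 0.0766 (limma adjusted p = 0.35), and the endocytic adaptor gene Epn2 one of 0.18 ± 0.0858 (adjusted p = 0.229). The list ranged from -0.14 to 0.18.

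Genes for sugars attached to the receptor's EGF repeats changed in both directions. Of the 8 measured genes, 3 were higher, 1 was lower and 4 missed the threshold. Poglut1, which adds O-glucose, was higher by 1.10 ± 0.166 (limma adjusted p = 0.00982). Eogt, which adds O-linked N-acetylglucosamine, read 9.26, 9.19 and 9.12 on the basal and 8.62, 8.68 and 8.66 on the non-basal arrays, a difference of 0.54 ± 0.0662 (adjusted p = 0.00537). Lfng, the lunatic fringe enzyme that elongates O-fucose and alters which ligands a receptor answers to, was higher by 0.58 ± 0.108 (adjusted p = 0.0188). Gxylt2, which adds xylose to O-glucose, was lower at -2.19 ± 0.351 (adjusted p = 0.0119), the most negative difference of the 60 genes. Mfng, the manic fringe enzyme, had a difference of -0.53 ± 0.182 and did not pass (adjusted p = 0.115). The calls of Poglut1 and Gxylt2 were both lost when basal replicate 1, basal replicate 2 or else non-basal replicate 3 was left out, and that of Lfng was lost in those 3 fits and in the one lacking non-basal replicate 2. The highest adjusted p of Poglut1, Gxylt2 and Lfng over all alternatives was 0.0563, 0.0696 and 0.0849.

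Among 6 measured genes of receptor cleavage, 1 was higher, 1 lower and 4 did not pass. Adam17, a protease able to cut Notch outside the membrane, read 9.83, 9.85 and 9.67 on the basal arrays and 9.29, 9.25 and 9.20 on the non-basal arrays. Its difference was 0.54 ± 0.0741 (SE, limma adjusted p = 0.00747). Psen2, a catalytic subunit of gamma-secretase, was lower at -0.46 ± 0.0956 (adjusted p = 0.0279). This Psen2 call was lost when basal replicate 1, basal replicate 2 or else non-basal replicate 2 was left out. The other gamma-secretase genes Aph1a and Psenen had differences of 0.22 and -0.18 and did not pass, although Aph1a did without non-basal replicate 1.

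None of the 7 measured genes of the nuclear activation complex and none of the 11 measured corepressor genes passed in limma. An unadjusted p under 0.05 was found for 5443 of all 18166 genes tested, and for 2 and 1 genes of these lists. These were the acetyltransferase genes Crebbp (0.32 ± 0.086, limma adjusted p = 0.0576) and Kat2a (0.29 ± 0.103, adjusted p = 0.124), and the corepressor gene Ctbp2 (0.35 ± 0.0995, adjusted p = 0.0688). Without basal replicate 3 Crebbp and Ctbp2 passed.

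The receptor turnover genes Numb and Numbl, which encode related endocytic inhibitors of Notch, also went opposite ways. Numb was higher by 0.40 ± 0.0805 (limma adjusted p = 0.0251) and Numbl was lower at -0.97 ± 0.187 (adjusted p = 0.0213). Both calls held in 2 of the 6 fits with an array left out, those lacking basal replicate 3 or non-basal replicate 1, with adjusted p up to 0.0989 for Numb and 0.0957 for Numbl. Dtx4, a Deltex ubiquitin ligase, was lower at -0.81 ± 0.184 (adjusted p = 0.0363). Among the 6 fits with 1 array left out, Dtx4 passed only without basal replicate 3. The other 5 of the 8 measured genes in this list did not pass.

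Of the 8 other HES, HEY and Notch target genes, 1 was lower and 7 did not pass. Heyl, the third HEY family gene, known from smooth muscle cells, read 8.129, 8.003 and 8.410 on the basal arrays and 9.019, 8.687 and 8.784 on the non-basal arrays, a difference of -0.65 ± 0.138 (SE, limma adjusted p = 0.0291). Its fractions did not overlap, basal replicate 3 was again the highest basal array, and the call held only without basal replicate 3 among the 6 fits. Hey2 read 8.92, 8.68 and 8.35 against 8.34, 7.74 and 7.53, a difference of 0.78 ± 0.245 that did not pass (adjusted p = 0.0927) but did without non-basal replicate 1. The HEY family thus held differences of both signs, with Hey1 and Heyl below 0 and Hey2 above it. The remaining 6 genes, among them Hes2, Hes3 and Hes5, had differences from -0.19 to 0.16.

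**Figure D5:**
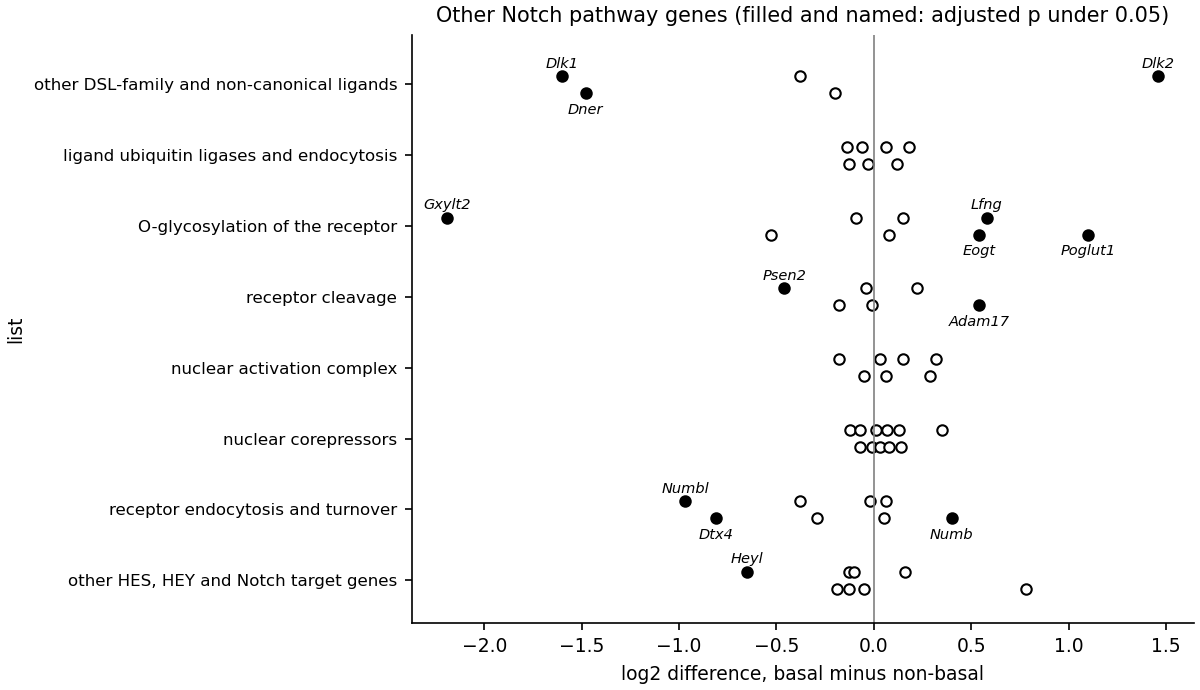
Log2 difference, basal minus non-basal (horizontal axis), of 60 other Notch pathway genes in 8 lists (vertical axis), each point 1 gene, filled and named where the adjusted p was under 0.05. Ligand-like, glycosylation, cleavage and turnover genes lie on both sides of 0, and no gene of ligand uptake, the nuclear activation complex or the corepressors is filled.

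For the gene with the smallest p of each class, the genes with the most similar values over the 6 arrays were listed, among genes with an SD of at least 0.5. For Jag2 these were Rtkn, Itgb6, Edaradd, Srf and Fermt1, with Pearson's r from 0.9999 to 0.9981 over 6 arrays, all higher in the basal fraction. Itgb6 encodes an epithelial integrin subunit and Fermt1 the integrin activator kindlin-1. For Notch3 they were Slc8a1, Tagln, Erg, Plvap and Tmem255b (r from 0.9982 to 0.9973), all lower, among which Tagln is a smooth muscle gene and Erg and Plvap are endothelial genes. For Hey1 they were Casq1, Car14, Ikzf4, Il31ra and Flt1 (r from 0.9987 to 0.9900), also lower. The 6 arrays share the division into 2 fractions. An r of at least 0.95 was found for 18.7% of the 1827 genes compared with Jag2, for 21% of the 1828 compared with Notch3 and for 5.74% of the 1828 compared with Hey1.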

How the data were processed

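Biotin-labelled RNA of 3 basal and 3 non-basal samples was hybridised to RaGene 2.0 ST arrays. Per the submitters' processing notes, the authors obtained the deposited log2 values by RMA with Affymetrix Expression Console. Software version, probe set library and build are not given in the sources used here. RMA forces the arrays to one distribution and compresses very dim and bright probe sets. Values ran from 1.46 to 14.33.

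Of 36685 probe sets, 18511 carried 1 symbol in the platform annotation, 575 several and 17599 none; only the first were used. Where a gene had several, the probe set with the highest mean was taken, giving 18166 genes. Differences were fitted with limma 3.58.1 in R 4.3.3 (lmFit, eBayes, two-sided, no filter, no block). The procedure was tested on simulated data. Named were the 10 genes, up to 5 per pathway list by smallest p, 4 defining markers per cell type and the 5 most similar genes. The members and lists were chosen with earlier results of these data known. Alternatives were the replicate block, quantile normalization, median centring, dim filters, array weights, trend with robust spread, averaged probe sets, other thresholds and arrays left out.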

Additional observations from a re-analysis of the deposited data

How the results depend on the processing

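Jag1, Jag2, Dll1 and Notch3 kept their direction and their side of the threshold in all 15 alternative fits. Notch2 passed in 0 of them, Notch1 and Hes1 in 2 each, Notch4 in 3, Dll4 in 5 and Hey1 in 12. Precision is limited by the 3 arrays per fraction. With array weights 5 members were higher and 4 lower, 10 other pathway genes were higher, 2868 genes in all were higher and 2323 lower, and the median of the receptors was -0.20. Without basal replicate 3 and non-basal replicate 1 together, 5 members were higher and 4 lower, 10 other pathway genes were higher, 2499 genes in all were higher and 2124 lower, the medians of receptors and targets were -0.22 and 0.28, and Notch2 turned to 0.01. At an adjusted p under 0.01, 1 member was lower, 1 other pathway gene was lower, and 491 genes were higher and 556 lower. With 1 array left out, 509 to 2068 genes were higher and 542 to 1607 lower, 3 to 3 members were higher and 1 to 4 lower, 3 to 8 other pathway genes were higher and 1 to 7 lower, and the medians lay at 1.29 to 1.48 for ligands, -0.20 to -0.13 for receptors and -0.06 to 0.17 for targets. Over these fits Dnm2 ran from -0.12 to 0.01 and Snw1 from -0.03 to 0.12. The cause was not tested. With the replicate number as a block, 5 other pathway genes were higher and 3 lower. Same-numbered arrays correlated at only 0.031, 0.038 and 0.028 in their deviations from the fraction means. By these values 6 of 6 arrays correlated best with their own number. The 6 matches are not independent, since the deviations within each fraction cancel out. They cannot decide whether the arrays were paired, and the labels do not tie an array to a rat. The block changed no call among the 10 genes.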
